A study of Mus musculus with 7 samples.

Results

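Fibroblast growth factors (FGFs) are secreted ligands that signal through 4 receptor tyrosine kinases, and 10 genes of this pathway were followed across the series: the ligands Fgf2, Fgf5, Fgf7 and Fgf10, the receptors Fgfr1, Fgfr2, Fgfr3 and Fgfr4, and the feedback genes Spry2 and Spry4. They were taken by symbol, as rows for which the platform annotation gives the member as its only gene, and each of the 10 had 1 probe set among the 13562 genes named on the array. The values are deposited log2 values from Affymetrix arrays of 7 mouse samples, 1 array per condition. The title of the series concerns Utx, an enzyme encoded by Kdm6a on the X chromosome that demethylates lysine 27 of histone H3, in the reprogramming of cells to pluripotency.

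From the V6.5 line of embryonic stem cells (ESCs) there was 1 array of Utx knockout (UTX-/Y, KO) and 1 of wild-type (UTX+/Y, WT) cells. A further array held Nanog-/- fibroblasts derived from Nanog-/- ESCs and transduced 8 days earlier with a lentivirus for Oct4, Sox2, Klf4 and Myc (OSKM). The other 4 were mouse embryonic fibroblasts (MEFs) labelled V19-OSKM, so that the uninduced cells carry the factors too: Utx KO with doxycycline (DOX, the drug that switches the factors on), WT with DOX, Utx KO without DOX and WT without DOX. The labels give 1 medium for all samples, N2B27 with 2i and LIF, in which 2i is known to contain an inhibitor of the kinase MEK. The sources used here do not give the dose and duration of DOX, the number of clones or animals, or the age of the embryos.

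With 1 array per condition there is no spread between replicates to set a difference against, so no p-value is given, and the small number of arrays limits how precise any value is. A gene was counted in a comparison when its higher value exceeded a floor of 7.34, the 40th percentile of all values, and as higher or lower at 2-fold or more. The share of all genes above the floor that passed the same rule is given for each comparison beside such counts. The median over all rows was between 7.68 and 7.84 on each Utx array but 8.55 for the Nanog KO sample, so that the median gene above the floor was 0.73 higher on the Nanog KO array than in WT MEFs without DOX and 0.76 higher than in WT MEFs with DOX (log2 differences). Each KO library had less Kdm6a than its WT partner, at 7.97 and 9.12 in ESCs, 7.57 and 8.93 in MEFs with DOX and 6.32 and 8.22 in MEFs without DOX. Pou5f1, the Oct4 gene that DOX induces, read 12.59 with and 8.19 without DOX in WT MEFs, but 5.12 in the library labelled KO with DOX and 11.26 in the one labelled KO without DOX. Nanog read 5.48 with and 5.43 without DOX in WT MEFs. It read 5.59 in the library labelled KO with DOX and 7.82 in the one labelled KO without DOX. Both libraries labelled KO are therefore named by their labels, and a direction that rests on either of them is only as sure as its label.

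All 9 ESC markers measured were above the floor in KO and in WT ESCs. In the Nanog KO fibroblasts 2 were above it, and in WT MEFs 3 with and 2 without DOX. In the MEFs labelled KO, 1 was above it with and 3 without DOX. Of 11 fibroblast markers, 1 was above the floor in KO ESCs and 7 in WT ESCs, 11 were in the Nanog KO fibroblasts and, among the MEFs with DOX, 11 in those labelled KO and 5 in WT, and 11 in each of the MEF libraries without DOX. Col3a1, Pdgfra, Pdgfrb, Postn, Twist2 and Lum were under the floor in WT MEFs with DOX. Of the 11, 9 were 2-fold or more lower there than without DOX, against 13.7% of all genes. The other 2 were within 2-fold, Dcn at 12.13 with and 11.85 without DOX and Prrx1 at 11.38 and 11.85.

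FGF ligands bind their receptors together with heparan sulphate on the cell surface, and the receptors signal through adaptor proteins to RAS and the MEK and ERK kinases. ERK signalling in turn induces inhibitors of the pathway, among them the Sprouty proteins and dual-specificity phosphatases, so that the mRNAs of these genes are often read as an output of the pathway. In many tissues mesenchymal cells secrete FGF7 and FGF10, which act on the epithelial splice form of FGFR2, while mouse ESCs make FGF4, whose signal through ERK prepares them for differentiation. One probe set per receptor does not tell splice forms apart.

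Among the ligands, Fgf7 varied most over the 7 arrays. Fgf7 is the keratinocyte growth factor of mesenchymal cells. It read 4.77 in KO ESCs, 6.12 in WT ESCs, 6.36 in the Nanog KO fibroblasts, 10.91 in the library labelled KO with DOX, 4.72 in WT MEFs with DOX, 9.48 in MEFs labelled KO without DOX and 11.34 in WT MEFs without DOX. The MEF libraries other than WT with DOX were high, and the remaining 4 arrays were all under the floor. Fgf7 was thus at least 16.0-fold lower in WT MEFs with DOX than without, a log2 difference of -6.62 between measured values. In such bulk samples fewer cells that make an RNA and less of it per cell cannot be told apart. In the MEFs labelled KO the DOX difference was 1.43, or 2.69-fold higher.

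Fgf10, a relative of Fgf7 that binds the same form of FGFR2, had the same highest 3 arrays in another order. Its values were 6.06 in KO ESCs, 6.80 in WT ESCs, 6.79 in the Nanog KO fibroblasts, 8.53 in the library labelled KO with DOX, 5.11 in WT MEFs with DOX, 6.94 in MEFs labelled KO without DOX and 7.53 in WT MEFs without DOX. Only the library labelled KO with DOX and WT MEFs without DOX were above the floor. The log2 difference with DOX was -2.42 in WT MEFs, where the fold is at least 1.14 because the lower side lies under the floor, and 1.59 in the MEFs labelled KO, at least 2.28-fold.

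Fgf2, the basic FGF that many fibroblasts make, was highest in WT MEFs without DOX. The arrays read 5.83 in KO ESCs, 6.82 in WT ESCs, 8.36 in the Nanog KO fibroblasts, 7.47 in the library labelled KO with DOX, 5.98 in WT MEFs with DOX, 6.75 in MEFs labelled KO without DOX and 8.91 in WT MEFs without DOX. DOX went with a difference of -2.92 in WT MEFs, at least 2.96-fold lower, and of 0.72 in the MEFs labelled KO. Without DOX, the library labelled KO lay 2.16 below WT on the log2 scale. Over the 5 fibroblast arrays Fgf2 and the macrophage markers had the same order of levels. The 9 macrophage markers had medians of at most 5.03 in the ESCs, 9.13 in the Nanog KO fibroblasts, 6.85 in the library labelled KO with DOX, 5.36 in WT MEFs with DOX, 5.91 in MEFs labelled KO without DOX and 9.91 in WT MEFs without DOX. The numbers of these markers above the floor were 1 in each ESC library and 7, 4, 1, 3 and 9 on the fibroblast arrays in that order, and their part in the Fgf2 values was not tested.

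Fgf5, a ligand of the postimplantation epiblast, stayed under the floor on all 7 arrays. Its lowest value was 5.60, in WT MEFs with DOX, its median 5.90 and its highest 6.67, on the Nanog KO array with its higher median.

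**Figure D1:**
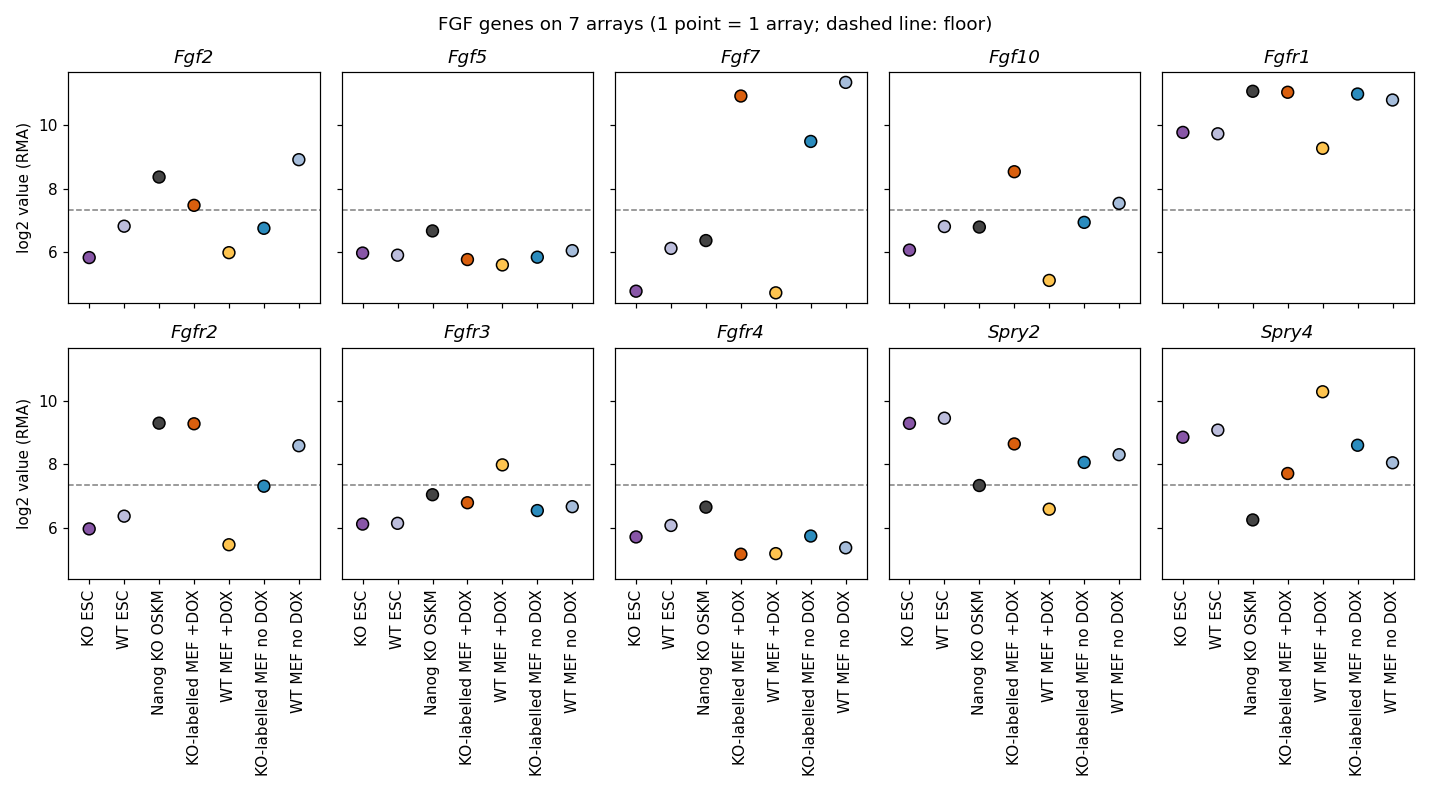
Log2 values of the 10 genes (vertical axes) on the 7 arrays (horizontal axes), 1 point per array, with the floor of 7.34 as a dashed line. Fgf7 spans 4.72 to 11.34, WT MEFs with DOX stand low for Fgf7, Fgf10, Fgfr1, Fgfr2 and Spry2 and high for Fgfr3 and Spry4, and Fgf5 and Fgfr4 stay under the floor throughout.

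Of the receptors, Fgfr1 was above the floor on every array, whereas Fgfr2 and Fgfr3 were above it on some arrays and Fgfr4 on none. Fgfr1, the main FGF receptor of fibroblasts and of mouse ESCs, read 9.76 in KO ESCs, 9.72 in WT ESCs, 11.06 in the Nanog KO fibroblasts, 11.03 in the library labelled KO with DOX, 9.26 in WT MEFs with DOX, 10.97 in MEFs labelled KO without DOX and 10.78 in WT MEFs without DOX. The fibroblast arrays other than WT with DOX lay within 0.27 of each other on the log2 scale. WT MEFs with DOX were lowest of all 7, at 2.87-fold lower than without DOX.

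Fgfr2 encodes the receptor for FGF7 and FGF10 in its epithelial form and for FGF2 in its mesenchymal form. It read 5.97 in KO ESCs, 6.37 in WT ESCs, 9.29 in the Nanog KO fibroblasts, 9.27 in the library labelled KO with DOX, 5.47 in WT MEFs with DOX, 7.31 in MEFs labelled KO without DOX and 8.58 in WT MEFs without DOX. The Nanog KO fibroblasts, the library labelled KO with DOX and WT MEFs without DOX were above the floor, and the 4 others were under it, though the library labelled KO without DOX was just so. The DOX difference was -3.11 in WT MEFs, at least 2.36-fold lower, and 1.96 in the MEFs labelled KO, at least 3.81-fold higher.

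The epithelial form of Fgfr2 is spliced under the proteins Esrp1 and Esrp2, and their genes stood opposite to Fgfr2 with DOX in WT MEFs. Esrp2 read 9.83 with and 6.14 without DOX there, and Esrp1 8.11 and 4.92. On the other 5 arrays Esrp1 was at 5.54 or less and Esrp2 at 7.27 or less, all under the floor. Of the 10 epithelial markers measured, among them Esrp1, 9 were above the floor in WT MEFs with DOX and 0 without DOX, with medians of 11.44 and 5.67. In the MEFs labelled KO the order was opposite, with 0 above the floor with DOX and 4 without DOX. The Nanog KO fibroblasts had 6, WT ESCs 7 and KO ESCs 5. Whether WT MEFs with DOX carried the epithelial form was not measured, and Fgfr2 itself was under the floor in them.

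Fgfr3, a receptor known from cartilage and from epithelia such as the urothelium, was the receptor gene that stood higher with DOX in WT MEFs. It read 6.12 in KO ESCs, 6.14 in WT ESCs, 7.04 in the Nanog KO fibroblasts, 6.79 in the library labelled KO with DOX, 7.98 in WT MEFs with DOX, 6.54 in MEFs labelled KO without DOX and 6.66 in WT MEFs without DOX. WT MEFs with DOX were the sole array above the floor, at least 1.56-fold above WT MEFs without DOX. Fgfr4, known from liver and developing muscle, had a lowest value of 5.17, in the library labelled KO with DOX, a median of 5.71 and a highest value of 6.65, on the Nanog KO array.

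The start regions of 6 of the 8 members called with DOX in WT MEFs are shown for their content of CpG dinucleotides, since CpG-rich starts are those where lysine 27 methylation of histone H3, the mark that Utx removes, is commonly found. RefSeq's promoter table (GRCm38.p6) held 8 of the 10 members, and the 250 bases upstream of the start are printed 5′ to 3′ on the gene's strand. Fgf7, Fgf10 and Fgfr2 are shown first, as their DOX differences were 2-fold or more in opposite directions in the 2 genotypes as labelled. Fgf2, Spry2 and Fgfr3, for which this was not so at 2-fold, follow. Fgfr3 had a second window in the table, and the upstream one is printed. Capitals mark CpG dinucleotides. The windows are chr2:126034408-126034657 (plus strand) for Fgf7, chr13:118714449-118714698 (plus) for Fgf10, chr7:130266809-130267058 (minus) for Fgfr2, chr3:37348403-37348652 (plus) for Fgf2, chr14:105896820-105897069 (minus) for Spry2 and chr5:33721474-33721723 (plus) for Fgfr3.
Fgf7: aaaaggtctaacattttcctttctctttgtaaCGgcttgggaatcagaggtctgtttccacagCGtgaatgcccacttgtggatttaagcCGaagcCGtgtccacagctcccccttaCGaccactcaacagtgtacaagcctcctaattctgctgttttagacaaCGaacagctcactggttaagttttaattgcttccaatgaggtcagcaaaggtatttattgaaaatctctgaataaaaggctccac
Fgf10: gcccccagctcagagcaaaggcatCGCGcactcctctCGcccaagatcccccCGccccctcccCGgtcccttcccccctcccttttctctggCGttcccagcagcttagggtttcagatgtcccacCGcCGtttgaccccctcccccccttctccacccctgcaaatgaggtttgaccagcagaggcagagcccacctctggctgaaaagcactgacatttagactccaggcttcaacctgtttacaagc
Fgfr2: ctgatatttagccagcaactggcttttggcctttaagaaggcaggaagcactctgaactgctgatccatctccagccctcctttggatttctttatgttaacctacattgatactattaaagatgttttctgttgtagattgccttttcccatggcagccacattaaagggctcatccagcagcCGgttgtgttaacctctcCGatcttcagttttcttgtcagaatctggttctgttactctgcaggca
Fgf2: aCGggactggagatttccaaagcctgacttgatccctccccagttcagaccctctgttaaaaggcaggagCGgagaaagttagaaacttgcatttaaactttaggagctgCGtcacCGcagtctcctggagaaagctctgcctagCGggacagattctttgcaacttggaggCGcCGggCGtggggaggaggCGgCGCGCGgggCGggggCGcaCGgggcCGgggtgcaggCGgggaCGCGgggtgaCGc
Spry2: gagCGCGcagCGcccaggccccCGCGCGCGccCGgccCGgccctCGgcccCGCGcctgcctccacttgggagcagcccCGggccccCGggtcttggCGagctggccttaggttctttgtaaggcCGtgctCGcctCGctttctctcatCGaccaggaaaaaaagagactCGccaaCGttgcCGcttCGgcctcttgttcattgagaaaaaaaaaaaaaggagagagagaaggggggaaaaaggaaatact
Fgfr3: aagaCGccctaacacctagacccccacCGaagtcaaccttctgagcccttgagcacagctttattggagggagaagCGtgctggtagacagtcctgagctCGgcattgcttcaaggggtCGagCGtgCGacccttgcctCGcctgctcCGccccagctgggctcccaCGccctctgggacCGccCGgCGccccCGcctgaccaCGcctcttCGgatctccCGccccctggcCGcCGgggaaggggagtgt
These windows hold 6 CpG dinucleotides for Fgf7, 8 for Fgf10, 2 for Fgfr2, 20 for Fgf2, 23 for Spry2 and 19 for Fgfr3, whose second window holds 24, against a median of 6 over the 32851 promoters of the table, with quartiles of 2 and 16. The share of all promoters with fewer was 49.6% for Fgf7, 57.0% for Fgf10, 18.8% for Fgfr2, 82.1% for Fgf2, 86.7% for Spry2 and 80.3% for Fgfr3, or 88.0% by its second window. Spry2 and Fgfr3, which differed with DOX in opposite directions in WT MEFs, both lay above the upper quartile. Fgfr3 was the only member higher with DOX in WT MEFs that had a window, since Spry4 had no entry. A link between CpG content and direction was not tested, and methylation of histone H3 was not measured. Of 4 short motifs searched on both strands, the GC box GGGCGG was found in 6 of the 9 windows of members (32.7% of all promoters) and CCAAT in 2 (33.8%). TATAAA, in 12.4% of all promoters, and the E-box CACGTG, in 6.02%, were found in 0 of the 9 windows. These matches describe the letters of the windows only.

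The Sprouty genes, whose proteins restrain receptor tyrosine kinase signalling, differed in opposite directions from one another with DOX in WT MEFs. Spry2 read 9.28 in KO ESCs, 9.45 in WT ESCs, 7.33 in the Nanog KO fibroblasts, 8.64 in the library labelled KO with DOX, 6.59 in WT MEFs with DOX, 8.06 in MEFs labelled KO without DOX and 8.30 in WT MEFs without DOX. Both ESC arrays were highest, and WT MEFs with DOX and the Nanog KO fibroblasts were under the floor. Spry4 read 8.85 in KO ESCs, 9.07 in WT ESCs, 6.25 in the Nanog KO fibroblasts, 7.71 in the library labelled KO with DOX, 10.28 in WT MEFs with DOX, 8.60 in MEFs labelled KO without DOX and 8.04 in WT MEFs without DOX. Its highest array was thus WT MEFs with DOX, where Spry2 was lowest, and its lowest was the Nanog KO fibroblasts, although that array has the highest median. With DOX in WT MEFs, Spry4 was 4.70-fold higher and Spry2 at least 1.94-fold lower. Spry1, another Sprouty gene, sided with Spry2, at 6.81 with and 9.07 without DOX.

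The 10 members as a group can be set against all genes in each comparison. They were chosen with earlier results of these data known, so the shares of all genes give scale and are no test. With DOX in WT MEFs, 8 members were above the floor, of which 6 were 2-fold or more lower (Fgf2, Fgf7, Fgf10, Fgfr1, Fgfr2 and Spry2), against 13.7% of all genes, and 2 were higher (Fgfr3 and Spry4), against 11.9%. The lower members other than Fgfr1 were above the floor only without DOX, so they could be counted as lower only. Fgfr3 was above it only with DOX, so it could be counted as higher only. The median log2 difference over the 10 members was -1.62, against 0.003 over all genes. With the floor at the 60th percentile (8.48), Fgf10, Fgfr3 and Spry2 were no longer counted. In the MEFs labelled KO, 3 of the 7 members above the floor were higher with DOX (Fgf7, Fgf10 and Fgfr2), against 6.81% of all genes, and 0 were lower, against 2.93%. With the array medians aligned, Spry4 passed the threshold as lower, and the counts over all genes there turned to 481 higher and 378 lower, in place of 621 and 267.

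The DOX differences had opposite signs in the labelled KO and the WT MEFs for 7 of the 10 members, by sizes that were small on the labelled KO side for some of them. The share of all genes with opposite signs was not computed, so this count is not read as particular to the members. Fgfr1 differed by 0.05 in the MEFs labelled KO and by -1.52 in WT MEFs, and its labelled KO value turned to -0.06 with the array medians aligned. Spry2 differed by 0.58 and -1.71, and Spry4 by -0.89 and 2.23. The labelled KO difference minus the WT difference was 8.04 for Fgf7, 5.08 for Fgfr2, 4.02 for Fgf10, 3.65 for Fgf2, 2.30 for Spry2, 1.57 for Fgfr1, -1.07 for Fgfr3 and -3.12 for Spry4. Since Pou5f1 ran against the DOX labels of the libraries labelled KO, the same values were also taken with the sign of the labelled KO difference turned. Opposite signs were then found for 3 of the 10 members (Fgf5, Fgfr3 and Fgfr4), and the differences were 5.19 for Fgf7, 2.20 for Fgf2, 1.46 for Fgfr1, 1.15 for Fgfr2, 1.13 for Spry2, 0.83 for Fgf10, -1.34 for Spry4 and -1.56 for Fgfr3. The remaining 7 then had the same sign in both. Apart from those of Fgfr1 and Spry4, the listed sizes, turned or not, rest partly on values under the floor and are uncertain. The library labelled KO with DOX was nearer to WT MEFs without DOX than to WT MEFs with DOX for 8 of the 10 members, and the library labelled KO without DOX was so for 9 of 10. For the library without DOX the exception was Fgf2, at 0.77 above WT MEFs with DOX and 2.16 below WT MEFs without DOX. These counts too have no share of all genes beside them. All counts out of 10 here include Fgf5 and Fgfr4, which were under the floor on every array.

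**Figure D2:**
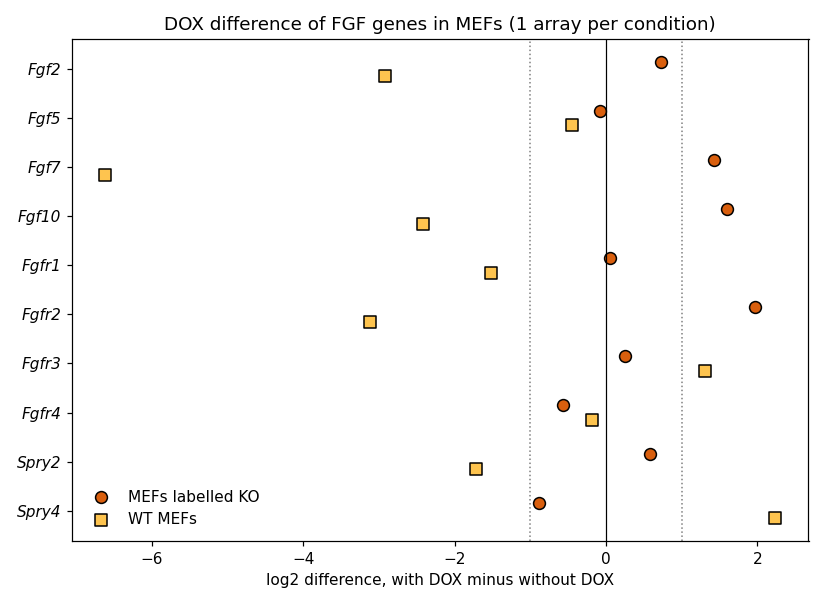
Log2 difference with DOX minus without DOX (horizontal axis) for each of the 10 genes (vertical axis), with circles for the MEFs labelled KO and squares for WT MEFs, 1 array per condition, and dotted lines at 2-fold. Fgf7 lies at 1.43 in the MEFs labelled KO and at -6.62 in WT MEFs, and Spry4 at -0.89 and 2.23.

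Set directly against WT MEFs with DOX, the library labelled KO with DOX had 6 members 2-fold or more higher and 2 lower of 8 above the floor, against 14.3% and 12.1% of all genes. This comparison shares an array with the DOX comparison in WT MEFs. Fgf7 differed by 6.19, Fgfr2 by 3.80, Fgf10 by 3.42, Spry2 by 2.05, Fgfr1 by 1.76 and Fgf2 by 1.49, while Fgfr3 differed by -1.19 and Spry4 by -2.57. With the floor at 8.48, Fgf2 and Fgfr3 were no longer counted. Without DOX, the library labelled KO had 3 of 7 members lower than WT (Fgf2, Fgf7 and Fgfr2), against 9.53% of all genes, and 0 were higher, against 5.04%. With aligned medians all genes split there into 677 higher and 685 lower, in place of 466 and 882. Fgf7 was 3.62-fold lower, Fgfr2 at least 2.36-fold lower and Fgf2 at least 2.96-fold lower.

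In ESCs, the members above the floor differed little between the genotypes. Of the 3 members above the floor, Fgfr1 differed by 0.04, Spry2 by -0.16 and Spry4 by -0.22 in KO relative to WT, so that 0 were 2-fold higher, against 0.651% of all genes, and 0 lower, against 3.18%. The other 7 were under the floor in both libraries. Among these the largest log2 differences were -1.35 for Fgf7, -0.99 for Fgf2 and -0.74 for Fgf10. Fibroblast markers moved the same way between these ESC libraries, with medians of 5.90 in KO and 8.91 in WT ESCs, and their part in the FGF values was not tested.

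Set against WT MEFs without DOX, WT ESCs had lower Fgf2, Fgf7, Fgfr1 and Fgfr2 and higher Sprouty genes. Of 7 members above the floor, 4 were lower (Fgf2, Fgf7, Fgfr1 and Fgfr2), against 19.8% of all genes, and 2 were higher (Spry2 and Spry4), against 14.5%. Fgf7 was at least 16.0-fold lower and Fgfr1 2.09-fold lower. Spry2 was 2.22-fold and Spry4 2.04-fold higher, close to the threshold, which Spry4 just missed after quantile normalization. Against WT MEFs with DOX, 1 of 4 members was higher in WT ESCs, against 13.6% of all genes, and 2 were lower, against 16.7%. Spry2 was at least 4.31-fold higher, Spry4 2.31-fold lower and Fgfr3 at least 1.56-fold lower, while Fgfr1 differed by 0.46 and the 4 ligands were under the floor on both arrays.

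The Nanog KO fibroblasts shared the low Fgf7 of WT MEFs with DOX, but not their low Fgfr1 and Fgfr2. Against WT MEFs with DOX, 3 of 5 members were higher (Fgf2, Fgfr1 and Fgfr2), against 37.2% of all genes, and 1 was lower (Spry4), against 5.53%. Relative to the median gene, the differences were 3.07 for Fgfr2, 1.62 for Fgf2, 1.04 for Fgfr1 and -4.79 for Spry4. With aligned medians 3 of 5 were higher and 2 lower, since Fgfr3 then differed by -1.68, and the counts over all genes turned to 1281 higher and 1299 lower, in place of 4032 and 599. With the floor at 8.48, Fgf2 was no longer counted. Against WT MEFs without DOX, 0 of 7 members were higher, against 35.1% of all genes, and 2 were lower (Fgf7 and Spry4), against 3.72%. With aligned medians 5 were lower, since Fgf2, Fgf10 and Spry2 then differed by -1.29, -1.49 and -1.71, and the counts over all genes turned from 3773 higher and 399 lower to 910 and 1064. The signs for Fgf5, Fgfr1, Fgfr2 and Fgfr3 turned as well, Fgfr1 being at 0.27 as deposited and -0.47 with aligned medians and Fgfr2 at 0.71 and -0.03.

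Other genes of the pathway were drawn from lists of ligands, co-receptors and heparan sulphate genes, adaptors and kinases, and feedback and ERK target genes, of which 71 of 86 were measured. These lists too were chosen with earlier results of these data known. Of the 12 other ligands measured, 2 were above the floor in the comparison of WT MEFs with and without DOX. Fgf4, the main FGF of mouse ESCs, read 11.21 in KO ESCs, 10.89 in WT ESCs, 6.66 in the Nanog KO fibroblasts, 5.90 in the library labelled KO with DOX, 9.21 in WT MEFs with DOX, 7.55 in MEFs labelled KO without DOX and 6.32 in WT MEFs without DOX. It stood high in ESCs and in WT MEFs with DOX, 3 of the arrays on which Fgf7 was under the floor. On the Nanog KO array, however, both genes were under the floor, and in MEFs labelled KO without DOX both were above it. The Nanog KO array was the sole one with Fgf9 and Fgf16 above the floor. Fgf9, a ligand of the developing gonad and lung, read 9.17 there and at most 6.08 elsewhere, and Fgf16 read 8.22 there and at most 6.22 elsewhere.

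Most co-receptor and ligand-binding genes above the floor were lower in WT MEFs with DOX, and in WT ESCs, than in WT MEFs without DOX. With DOX in WT MEFs, 10 of the 17 above the floor were lower, against 13.7% of all genes, and 1 was higher, against 11.9%, with a median log2 difference of -1.04. Gpc3, a heparan sulphate proteoglycan of the cell surface, read 5.83 with and 11.33 without DOX, and Sulf1, an enzyme that trims sulphate groups from heparan sulphate, 6.40 and 10.52. The higher one was Fgfbp1, which releases FGFs from the matrix, at 10.12 with and 5.40 without DOX. The library labelled KO with DOX had 7 of 18 higher and 2 lower than WT MEFs with DOX, against 14.3% and 12.1% of all genes. In WT ESCs against WT MEFs without DOX, 11 of 16 were lower and 0 higher, against 19.8% and 14.5%. The Nanog KO fibroblasts had 2 of 17 higher and 0 lower than WT MEFs without DOX, where 35.1% of all genes were higher and 3.72% lower. Gpc3 read 12.56 and Sulf1 11.22 on the Nanog KO array, and with aligned medians 0 of 16 were higher and 0 lower. Between the ESC libraries, 4 of 16 were lower in KO and 0 higher, against 3.18% and 0.651% of all genes, and the largest difference was in Cd44, at 5.32 in KO and 7.94 in WT ESCs. Of the 7 fibroblast markers above the floor there, 6 were lower in KO ESCs as well, and their part in these values was not tested.

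**Figure D3:**
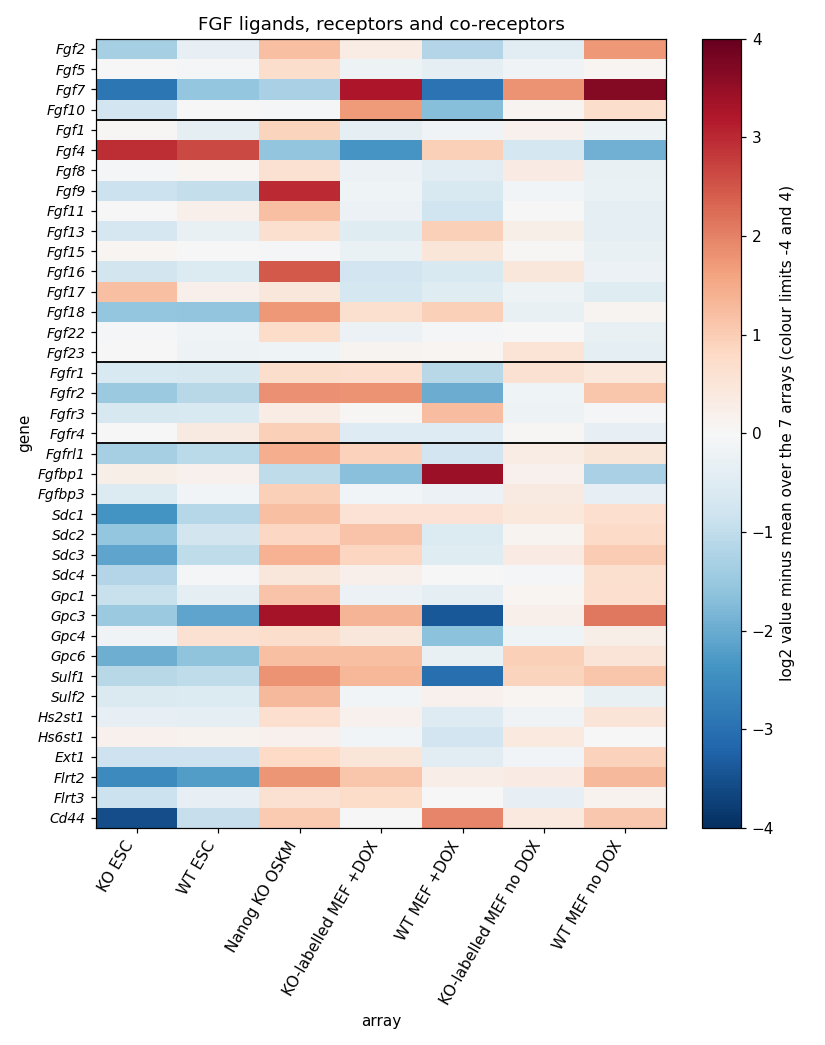
Log2 values of FGF ligand, receptor and co-receptor genes (rows), each as its difference from the gene's own mean over the 7 arrays (columns), with black lines between members and other genes and colours limited to -4 and 4. WT MEFs with DOX are low for Fgf7, Fgfr2, Gpc3 and Sulf1 and high for Fgfbp1, and the Nanog KO array alone is high for Fgf9 and Fgf16.

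Adaptors and kinases differed by 2-fold in some comparisons and not in others. With DOX in WT MEFs, 0 of 17 above the floor were higher, against 11.9% of all genes, and 0 lower, against 13.7%, with a median of -0.07, and 1 of 18 was lower with aligned medians. The Nanog KO fibroblasts had 4 of 18 higher and 0 lower than WT MEFs without DOX, against 35.1% and 3.72% of all genes, and with aligned medians 1 higher and 1 lower. Against WT MEFs with DOX they had 5 of 18 higher and 0 lower, against 37.2% and 5.53%, and with aligned medians 0 of 17 either way. In WT ESCs, 1 of 17 was higher than in WT MEFs without DOX and 2 were lower, against 14.5% and 19.8%. The higher one was Gab1, a docking protein downstream of the receptors, at 10.80 in WT ESCs and 8.51 in WT MEFs without DOX. Between the ESC libraries 0 of 16 were higher and 0 lower in KO, against 0.651% and 3.18%.

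Feedback and ERK target genes, the list to which the Sprouty genes belong, separated WT MEFs with DOX from the Nanog KO fibroblasts. With DOX in WT MEFs, 9 of 21 above the floor were higher, against 11.9% of all genes, and 2 lower (Spry1 and Egr2), against 13.7%, with a median log2 difference of 0.43. Myc, itself 1 of the OSKM factors, is among the 9, at 12.21 with and 10.99 without DOX. Myc also counts among the genes lower than in WT MEFs with DOX in the library labelled KO with DOX and in the Nanog KO fibroblasts. Spred3, a relative of the Sprouty genes, was at least 3.51-fold higher. In the MEFs labelled KO, 1 of 18 was higher with DOX and 1 lower, against 6.81% and 2.93% of all genes, and with aligned medians 1 of 21 was higher and 3 lower. The library labelled KO with DOX had 11 of 21 lower and 2 higher than WT MEFs with DOX, against 12.1% and 14.3%, led by Dusp4, a phosphatase that acts on ERK, at 5.99 and 9.86. Without DOX, the library labelled KO had 6 of 19 lower and 0 higher than WT, against 9.53% and 5.04%. With aligned medians, 4 of 21 were lower there and 1 higher.

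In the Nanog KO fibroblasts, 12 of 19 feedback and target genes were lower than in WT MEFs without DOX and 1 was higher, against 3.72% and 35.1% of all genes, with a median of -1.30 where the median gene differed by 0.73. With aligned medians 15 of 19 were lower and 0 higher. Dusp6, the phosphatase of cytoplasmic ERK, read 5.78 on the Nanog KO array and 9.40 in WT MEFs without DOX. Etv5, an ETS factor downstream of FGF, read 5.75 and 8.84, and Fosl1, a subunit of the factor AP-1, 6.26 and 9.65. Spry4, with 6.25 and 8.04, was low on the same array. Against WT MEFs with DOX, 13 of 20 were lower and 1 higher, against 5.53% and 37.2% of all genes, with Etv5 at 5.75 and 10.30 and Phlda1 at 6.29 and 10.46.

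In WT ESCs, 4 of 20 were higher than in WT MEFs without DOX, against 14.5% of all genes, and 7 lower, against 19.8%, with Etv5 at 11.41 and 8.84 on the higher side and Egr2 at 5.92 and 9.09, Egr1 at 7.72 and 10.30 and Fosl1 at 7.27 and 9.65 on the lower. Against WT MEFs with DOX, 9 of 20 were lower in WT ESCs and 4 higher, against 16.7% and 13.6% of all genes. Between the ESC libraries 1 of 16 was lower in KO and 0 were higher, against 3.18% and 0.651%.

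**Figure D4:**
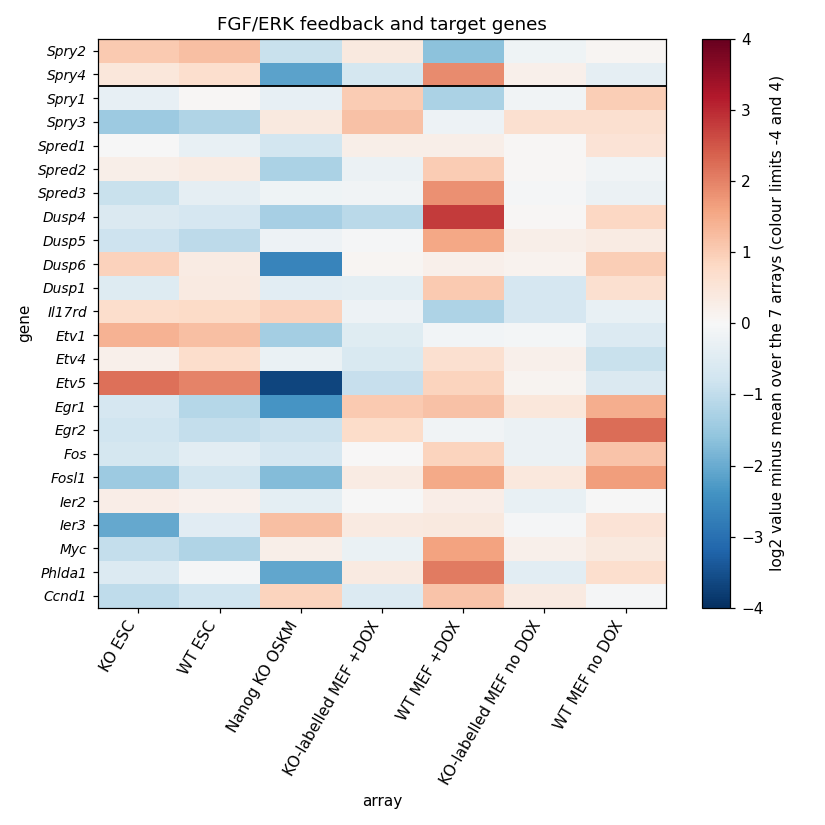
Log2 values of Spry2, Spry4 and 22 other feedback and ERK target genes (rows), each as its difference from the gene's own mean over the 7 arrays (columns), with a black line under the members and colours limited to -4 and 4. Dusp6, Etv5, Fosl1, Phlda1 and Spry4 are low on the Nanog KO array, and Spry4, Dusp4 and Spred3 are high and Spry1 and Spry2 low in WT MEFs with DOX.

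For the members that spanned at least 3 on the log2 scale, the genes most like them over the 7 arrays were found among 11588 genes by the root mean square difference of values centred on each gene's own mean. Fgf7 was most like Itga11, a collagen-binding integrin of fibroblasts, at 0.34, Cxcl12, a chemokine of stromal cells, at 0.49 and Tnmd, a tendon gene, at 0.64. Fgfr2 was most like Pcdh9 at 0.30, Foxp2 at 0.32 and Rassf4 at 0.35. Fgf10 was most like Amot at 0.34, 4930402H24Rik at 0.34 and Plod2 at 0.36. Fgf2 was most like Lims2 at 0.24 and then Cd180 at 0.26 and Itgb2 at 0.27, which are both genes of leukocytes. Spry4 was most like Nr4a1, an immediate early gene, at 0.52, Spred2 at 0.53 and Anln at 0.55. These likenesses rest on 7 arrays and describe their levels only.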

How the data were processed

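RNA from 7 mouse samples was measured on 1 Affymetrix array each. Per the submitters' processing notes, the authors used Affymetrix Expression Console and RMA, which includes background correction, normalization across arrays and a summary over probes, and the deposited values are on a log2 scale. The sources used here give no versions or genome build, nor whether the Nanog KO array was normalized with the others. The table held 21811 rows without missing values. Groups came from the labels. Of the rows, 14894 had 1 gene symbol in the platform annotation, 925 had several and were left out, and 5992 are unnamed here. All 10 members matched RefSeq symbols. Where a gene had several rows, the one with the highest mean stood for it. Per gene the log2 difference of 2 arrays was taken and called at 2-fold where the higher value exceeded the 40th percentile of all values (7.34). A fold whose lower side lay under this floor is a lower bound, computed with the floor in its place and written "at least". No test was run, since no group has 2 arrays. Arrays have no read depth. Other pathway genes were named when called at 4-fold or more, at most 6 in each direction of a comparison, and otherwise counted, and Kdm6a, Nanog and Pou5f1 were allowed as checks of labels. Myc was named as well, as 1 of the OSKM factors. The members and gene lists were chosen with earlier results of these data known. The calling rule was run on simulated data, in which genes far above the floor were shifted by 4-fold with little noise. That run only checks the code, and it does not cover calls near the floor or near 2-fold. Alternatives were aligned array medians, quantile normalization, no floor, the 60th percentile (8.48), 1.5-fold, the mean over a gene's rows, and a turned sign of the labelled KO difference with DOX. Python 3.11.15, numpy 2.4.6, pandas 2.3.3 and matplotlib 3.10.9 were used.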

Additional observations from a re-analysis of the deposited data

Results flagged for a closer look

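For 3 members the DOX difference was 2-fold or more in opposite directions in the MEFs labelled KO and in WT MEFs. The labelled KO difference minus the WT difference was 8.04 for Fgf7, 4.02 for Fgf10 and 5.08 for Fgfr2 on the log2 scale. These sizes are between measured values. In WT MEFs with DOX the values were under the floor, at 4.72 for Fgf7, 5.11 for Fgf10 and 5.47 for Fgfr2, so the sizes are uncertain. The differences were not tested, since each condition has 1 array, and Pou5f1 ran against the DOX labels of the labelled KO libraries. The share of all genes with such opposite differences was not computed. For Fgf10 the fold in WT MEFs is at least 1.14 when the floor stands in for the lower value. With the floor at the 60th percentile, Fgf10 was no longer counted in WT MEFs. With the sign of the labelled KO difference turned, these 3 members differ in the same direction in both, and 0 members differ by 2-fold in opposite directions.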

How the results depend on the processing

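Counts of the 10 members called at 2-fold were recomputed under each alternative, with the count as reported in brackets. The share of all genes was recomputed for aligned medians and quantile normalization only. The counts under the other alternatives have no such share and are not read as particular to the members. With aligned medians, 1 member was lower with DOX in the MEFs labelled KO (0), against 3.94% of all genes. In the Nanog KO fibroblasts 5 were then lower than in WT MEFs without DOX (2), against 11.0%. There, 2 were lower than in WT MEFs with DOX (1), against 13.3%. Quantile normalization gave the same 3 counts, 1, 5 and 2, against 3.72%, 10.6% and 12.7% of all genes. It also gave 1 higher in WT ESCs than in WT MEFs without DOX (2), against 14.3%, since Spry4 then differed by 0.9996. Without a floor, the Nanog KO fibroblasts had 1 higher than WT MEFs without DOX (0) and 7 higher than WT MEFs with DOX (3), WT ESCs 3 higher than WT MEFs with DOX (1) and KO ESCs 1 lower than WT ESCs (0). With the floor at 8.48, DOX in WT MEFs gave 1 higher (2) and 4 lower (6), and relative to WT MEFs with DOX there were 2 higher in the Nanog KO fibroblasts (3) and 5 higher in MEFs labelled KO with DOX (6), and 1 was lower in each of the Nanog KO fibroblasts against WT MEFs without DOX (2), WT ESCs against WT MEFs with DOX (2) and the library labelled KO with DOX against WT MEFs with DOX (2). At 1.5-fold, 1 was lower (0) and 4 higher (3) with DOX in the MEFs labelled KO, and relative to WT MEFs without DOX there were 5 lower in WT ESCs (4) and 4 lower in MEFs labelled KO without DOX (3), and the Nanog KO fibroblasts had 1 higher (0) and 4 lower (2) than WT MEFs without DOX and 2 lower than WT MEFs with DOX (1). The mean over a gene's rows moved none, since each member has 1 row. No called member reversed its sign in a comparison under these scaling, floor and fold alternatives. With the sign of the labelled KO difference turned, an alternative chosen after seeing the data, DOX differences had opposite signs for 3 members (7) and were 2-fold or more in opposite directions for 0 (3). Of the 3 members with such opposite differences as labelled, Fgf10 was not counted in WT MEFs with the floor at 8.48. No paired analysis was possible because each group has 1 array. Signal near the floor limits Fgf5, Fgfr4, Fgf10 and Fgfr3, and Fgf2 in the library labelled KO with DOX.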
